A study of Homo sapiens with 4 samples.

Results

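CDX1, CDX2 and CDX4, the human caudal-type homeobox genes, and EVX1, the even-skipped homeobox gene, were followed at day 2 of hematopoietic differentiation with and without a block of Wnt secretion. The 4 genes were taken by symbol from a table of 58365 gene rows, and each symbol had 1 row. Cells of the human embryonic stem cell line H1 were cultured for 2 days with 40 ng/ml activin A and 50 ng/ml BMP4, as the labels give it (the study's methods give the concentrations of the 2 factors the other way round). They received either IWP2, an inhibitor of the acyltransferase Porcupine that Wnt ligands need for secretion, or no inhibitor, labelled DMSO after the solvent. Each group had 2 libraries of RNA from the whole culture, all from the single line H1, and the 4 libraries shared the activin A and BMP4 treatment. The replicate numbers below are those in the headers of the table's columns. The sources used here give no IWP2 concentration and do not say whether the libraries came from separate cultures, so the p-values measure the spread between these libraries, which may be technical.

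The CDX genes encode DNA-binding homeodomain proteins that mark the posterior end of the embryo. They are switched on in the posterior primitive streak, act downstream of Wnt and FGF signals, activate HOX genes during axis elongation, and are needed for embryonic blood formation in fish and mouse. CDX2 has further roles in the trophoblast and in the intestine. EVX1 encodes a homeodomain protein of the posterior primitive streak, and its gene lies beside the HOXA cluster.

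The genes lie on separate chromosomes, and the table's coordinates were those of GRCh38, where GENCODE 29 gives the same limits for each. CDX1 (ENSG00000113722.16) is at chr5:150166795-150184558 on the plus strand with 2 annotated transcripts, CDX2 (ENSG00000165556.9) at chr13:27962137-27971139 on the minus strand with 2, CDX4 (ENSG00000131264.3) at chrX:73447254-73455245 on the plus strand with 1, and EVX1 (ENSG00000106038.12) at chr7:27242700-27250493 on the plus strand with 4. RefSeq sequence ahead of the start (GRCh38.p14) was at hand for CDX2, CDX4 and EVX1. It was searched on both strands, in the 250 bases before each start, for the core of the TCF/LEF factors that carry the Wnt signal to DNA (CTTTGAA or CTTTGAT or CTTTGTA or CTTTGTT), for the CDX core (TTTATG or TTTATA) and for the T-box site AGGTGTGA. The only match was a CTTTGAA in the CDX2 window, beginning 238 bases before the RefSeq start, and it overlapped no other motif. Among 27305 promoters of the same length, 12.1% held a TCF/LEF core, 18.9% a CDX core and 0.787% the T-box site. The GC content was 45.2% for CDX2, 50.8% for CDX4 and 55.6% for EVX1, against a median of 58.0% over all promoters. The stretches below come from the windows of the gene with the match, the gene that differed least between the groups and the gene that fell most. Capitals mark the TCF/LEF core. The CDX2 stretch, chr13:27969535-27969564 on the minus strand, is cut to the 30 bases around the match because GENCODE 29 places the whole window inside an exon of CDX2. The CDX4 stretch is the whole window, chrX:73446803-73447052 on the plus strand. The EVX1 stretch, chr7:27242552-27242699 on the plus strand, holds the 148 bases of the window that lie ahead of the GENCODE start of EVX1.
CDX2: ttgatttcattCTTTGAAcctgtgattgga
CDX4: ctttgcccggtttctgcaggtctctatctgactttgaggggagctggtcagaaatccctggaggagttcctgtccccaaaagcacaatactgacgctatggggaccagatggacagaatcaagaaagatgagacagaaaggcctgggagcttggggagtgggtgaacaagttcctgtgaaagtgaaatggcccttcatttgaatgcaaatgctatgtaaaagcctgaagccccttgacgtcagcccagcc
EVX1: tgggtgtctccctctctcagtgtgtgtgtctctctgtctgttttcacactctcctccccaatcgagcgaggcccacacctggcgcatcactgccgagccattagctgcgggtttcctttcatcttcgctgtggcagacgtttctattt

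Levels are given as FPKM, fragments scaled to transcript length and to library depth, so levels of different genes can be set side by side. The table holds no counts. The smallest values in it were spaced like single fragments, and from that spacing the libraries were estimated to hold 20600000 (DMSO replicate 1), 18300000 (DMSO replicate 2), 22700000 (IWP2 replicate 1) and 19600000 (IWP2 replicate 2) fragments. Between 13831 and 13926 rows reached 1 FPKM in a library. The highest row was the mitochondrial MT-ATP8 in both replicate 1 libraries and the small cytoplasmic RN7SL2 in both replicate 2 libraries, so that in this respect libraries with the same number were alike across the groups. Differences were tested with limma on log2(FPKM + 1) across 15957 genes with a mean of at least 0.5 FPKM over the 4 libraries, and a gene was called at a Benjamini-Hochberg adjusted p under 0.05. Over all genes tested, 7.39% were called lower and 5.86% higher in IWP2, and 31.0% had both IWP2 libraries under both DMSO libraries. The median difference was -0.01 (log2). With upper quartile scaling, 1057 genes were called lower and 1085 higher, against 1180 and 935 without it, so the balance between lower and higher over all genes rests on the scaling.

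In the control cells EVX1 was by far the most abundant of the 4 genes, and with IWP2 it was nearly lost, together with CDX2 and CDX1. CDX4 kept 69.0% of its control level. The 4 genes each had both IWP2 libraries under both DMSO libraries, as had 31.0% of all genes, and EVX1, CDX2 and CDX1 passed the test of the difference. CDX1 and CDX2 reached the minimum mean only through the DMSO libraries, since their IWP2 means were below it, so that the count of genes called among those tested is no support of its own.

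EVX1 was measured at 34.6 and 33.0 FPKM in the DMSO libraries and at 0.559 and 0.493 FPKM in the IWP2 libraries. The 2 libraries of each group lay close together, and the groups were far apart. The mean fell from 33.8 ± 1.16 to 0.526 ± 0.0464 FPKM (SD, n = 2 each), a ratio of means of 64.3. On the log2(FPKM + 1) scale EVX1 fell by 4.51 (SE 0.12, 95% interval -4.81 to -4.21, limma adjusted p = 0.000302). This was the 17th lowest difference of the 15957 genes tested. The call held with any 1 library left out, at adjusted p between 0.0224 and 0.0352.

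CDX2 was measured at 5.49 and 5.21 FPKM with DMSO and at 0.233 and 0.145 FPKM with IWP2. The IWP2 libraries differed from each other more, in proportion, than the DMSO libraries did, and neither came near the control level. The means were 5.35 ± 0.202 and 0.189 ± 0.0624 FPKM (SD, n = 2 each), a ratio of 28.3. The fall was 2.42 on the log2(FPKM + 1) scale (SE 0.16, 95% interval -2.81 to -2.02, limma adjusted p = 0.00175), rank 135 from the lowest. Without IWP2 replicate 1 the limma adjusted p was 0.0530, and without IWP2 replicate 2 it was 0.0605, with differences of -2.47 and -2.36.

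CDX1 was measured at 3.14 and 2.78 FPKM with DMSO and at 0.132 and 0.153 FPKM with IWP2. Both treated libraries again lay at a small share of the control level. The means were 2.96 ± 0.249 and 0.143 ± 0.0152 FPKM (SD, n = 2 each), a ratio of 20.8. The fall was 1.79 on the log2(FPKM + 1) scale (SE 0.17, 95% interval -2.22 to -1.37, limma adjusted p = 0.00479), rank 257 from the lowest. Without IWP2 replicate 1 the limma adjusted p was 0.0818, and without IWP2 replicate 2 it was 0.0832, with differences of -1.78 and -1.81.

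CDX4 was measured at 2.32 and 2.39 FPKM with DMSO and at 1.39 and 1.87 FPKM with IWP2. The IWP2 libraries were both lower, but the distance between them was about as wide as the gap from the nearer one to the control. The means were 2.36 ± 0.0505 and 1.63 ± 0.344 FPKM (SD, n = 2 each), a ratio of 1.45. The difference of -0.36 on the log2(FPKM + 1) scale did not pass the test (SE 0.17, 95% interval -0.79 to 0.07, limma adjusted p = 0.242). The interval runs from a fall of 0.79 to a rise of 0.07, so that neither a modest fall nor no change lies outside it. CDX4 ranked 2701 from the lowest.

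**Figure D1:**
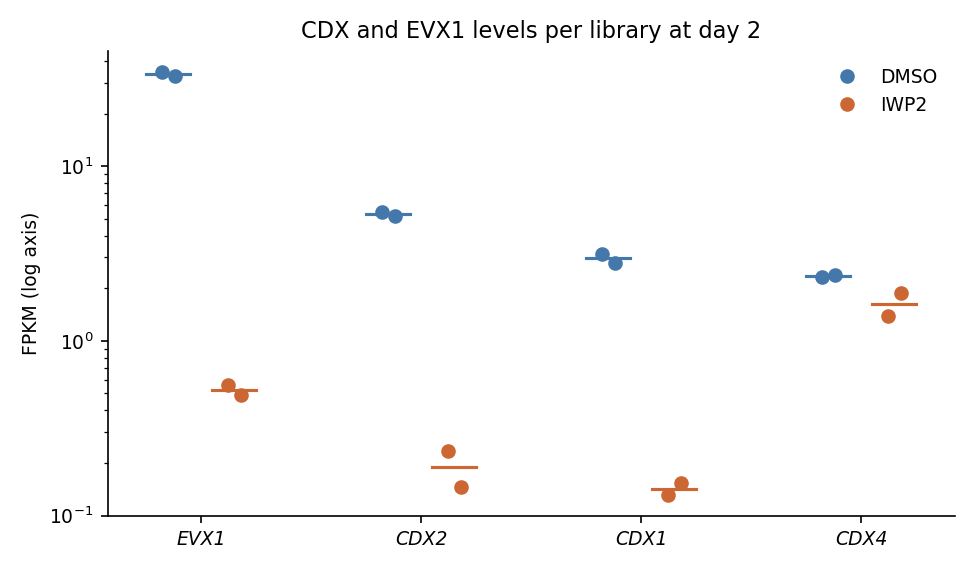
FPKM of each gene per library on a log axis, with DMSO libraries in blue, IWP2 libraries in orange and bars at the group means. EVX1, CDX2 and CDX1 dropped in both IWP2 libraries, to 0.526, 0.189 and 0.143 FPKM on average, while CDX4 lay at 1.39 and 1.87 FPKM beside 2.32 and 2.39 FPKM in the controls.

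Few fragments stand behind the treated levels. With annotated transcript lengths, from the shortest to the longest, and the estimated depths, EVX1 in IWP2 came to 4 to 38 fragments a library, CDX2 to 2 to 21 and CDX1 to 4 to 5. CDX4, with its single annotated transcript, came to 73 and 67 fragments with DMSO and to 48 and 56 with IWP2. The ratios of DMSO to IWP2 for EVX1, CDX2 and CDX1 therefore have few fragments in their denominators, and the SD of 2 libraries is itself a rough measure of that error. The pseudocount also compresses the log2 values of such low genes: with 0.01 in place of 1 FPKM the differences were -5.98 for EVX1, -4.79 for CDX2, -4.28 for CDX1 and -0.55 for CDX4.

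The order of the levels changed with treatment. With DMSO it ran EVX1, CDX2, CDX1, CDX4, and the ranges of neighbours did not overlap in the 2 libraries, although CDX1 and CDX4 were only 1.26 times apart in their means. With IWP2 it ran CDX4, EVX1, CDX2, CDX1. The ranges of CDX2 and CDX1 then overlapped, so that these 2 did not differ beyond their spread. CDX4, the lowest of the 4 in the controls, was 3.10 times as high as EVX1 in the treated cells.

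The summed level of the CDX genes was 11.0 and 10.4 FPKM with DMSO and 1.75 and 2.17 FPKM with IWP2. CDX2 made up 50.2% and 50.1% of that sum in the DMSO libraries and 13.3% and 6.68% in the IWP2 libraries. CDX1 went from 28.6% and 26.8% to 7.54% and 7.07%. CDX4 went from 21.2% and 23.0% to 79.1% and 86.2%, so that most of the remaining CDX signal was CDX4. The log2 ratio of CDX2 to CDX4 was 1.24 and 1.12 with DMSO and -2.57 and -3.69 with IWP2. That of CDX1 to CDX4 was 0.43 and 0.22 against -3.39 and -3.61, and that of EVX1 to CDX4 was 3.90 and 3.78 against -1.31 and -1.92. Each of the 3 ratios was separated between the groups, and the loss relative to CDX4 was 19.9-fold for CDX2, 14.2-fold for CDX1 and 44.0-fold for EVX1. An exact permutation test over 2 against 2 libraries gave p = 0.333 (two-sided) for each, the smallest value that this design allows.

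**Figure D2:**
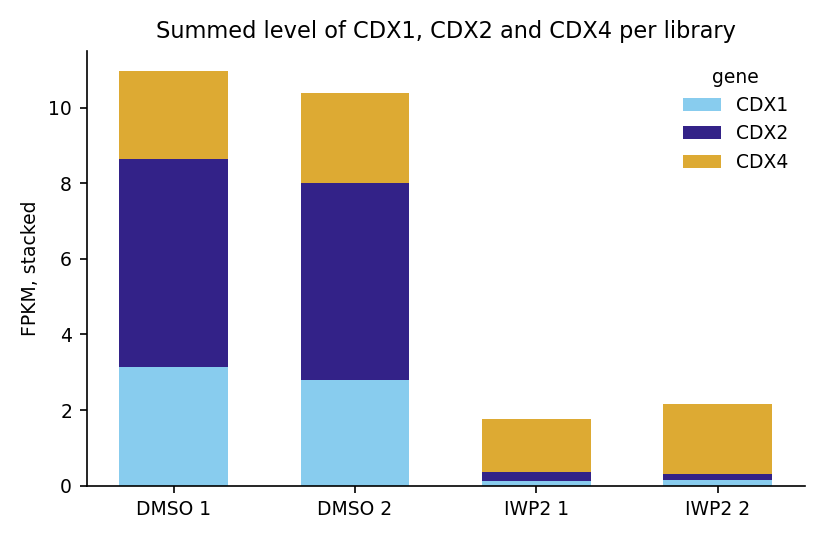
Stacked FPKM of CDX1, CDX2 and CDX4 in each library. The sum was 11.0 and 10.4 FPKM in the DMSO libraries and 1.75 and 2.17 FPKM in the IWP2 libraries, where CDX4 made up 79.1% and 86.2% of it.

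**Figure D3:**
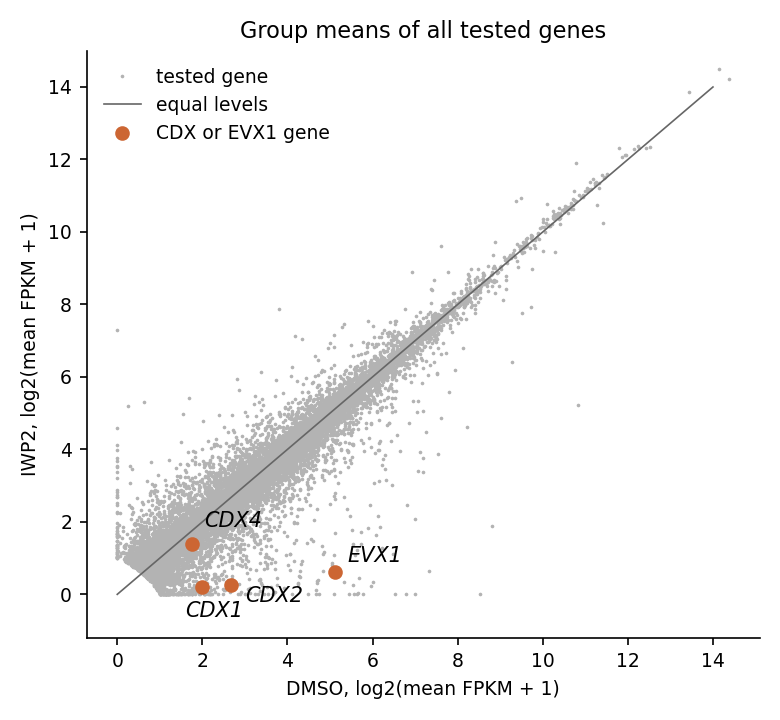
Mean level in IWP2 against mean level in DMSO for the 15957 genes tested, on the log2(mean FPKM + 1) scale, with the line of equal levels. CDX4 lies just under the line, whereas EVX1, CDX2 and CDX1 lie along the lower edge of the cloud.

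EVX1 has an antisense partner that moved with it. EVX1-AS, a noncoding RNA on the minus strand at chr7:27241429-27247229, was measured at 16.2 and 12.0 FPKM with DMSO, at 0.258 FPKM in IWP2 replicate 1, and was listed at 0 in IWP2 replicate 2. It fell by 3.74 on the log2(FPKM + 1) scale (limma adjusted p = 0.00127). EVX1-AS reached the minimum mean only through the DMSO libraries, with an IWP2 mean of 0.129 FPKM, so its call is no support of its own. Without IWP2 replicate 2 the limma adjusted p was 0.0504. The 2 genes share 532 exonic bases, out of 1361 for EVX1-AS and 3353 for EVX1, and the sources used here do not state that strand was used in counting. If strand was not used, fragments from the shared bases could have been counted for either gene, and whether the values of EVX1 and EVX1-AS are independent is not known. The 148 bases printed above for EVX1 lie within the span of this antisense gene.

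The surroundings of the genes were compared by taking the 3 nearest table genes on each side in the RefSeq order. Most neighbours were too low to test. Beside CDX1, the growth factor receptor gene PDGFRB lay 10.9 kb away and was measured at 7.28 and 6.05 FPKM with DMSO and at 10.3 and 7.84 with IWP2, without a call. ARSI, a sulfatase gene on the other side, had 1.23 and 1.35 FPKM with DMSO and 1.77 and 1.93 with IWP2, and the ribosomal protein pseudogene RPL7P1 had a difference of 0.03 (log2), neither of them called. Beside CDX2, no neighbour was tested, and the ParaHox gene PDX1 was listed at 0 in every library. Beside CDX4, likewise, no neighbour was tested. Beside EVX1, HOXA13, the last gene of the HOXA cluster, lay 42.7 kb away and had 0.575 and 0.541 FPKM with DMSO and 0.0581 and 0.0863 with IWP2, below the minimum mean. The pseudogene EIF4HP1, 209 kb to the other side, had a difference of -0.01 (log2) and was not called. Among the neighbours tested, EVX1-AS was the only gene called, beside 7.39% of all genes called lower and 5.86% higher. It reached the minimum mean only through the DMSO libraries. PDGFRB, ARSI, RPL7P1 and EIF4HP1, the others tested, are too few for the absence of calls to describe the surroundings.

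The relatives of the CDX and EVX genes were nearly silent. GSX1 and PDX1, the other ParaHox genes beside GSX2, were listed at 0 in all 4 libraries. GSX2 and EVX2, the second EVX gene, had 0.106 and 0.0221 FPKM in DMSO replicate 1 and were listed at 0 in the others.

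HOX genes, which CDX factors are known to activate, were low in the controls outside the HOXB cluster and lower still with IWP2. Of 39 HOX genes in the table, 9 had enough signal to test, and each of the 9 was called lower, beside 7.39% of all genes. Of the 9, 8 reached the minimum mean only through the DMSO libraries. The other 30 were not tested, so the count says nothing about them. The summed level of all HOX genes was 83.8 and 110 FPKM with DMSO and 2.16 and 2.75 FPKM with IWP2. HOXB6 was the highest, with 38.9 and 51.7 FPKM with DMSO and 0.116 and 0.263 with IWP2 (a difference of -5.27 on the log2(FPKM + 1) scale). HOXB2 had 15.8 and 21.2 against 0.320 and 0.493 FPKM. HOXB9 had 7.80 and 10.5 against 0.869 and 0.790 FPKM. Among paralog groups 1 to 4, 3 of 12 genes were tested and called lower (HOXB2 and HOXB3 among them), and among groups 5 to 9, 6 of 15, the examples with most signal being HOXB6, HOXB9, HOXB8 and HOXB7. None of the 12 genes of groups 10 to 13 reached the minimum mean, and HOXA10, the highest of them, had 0.706 and 1.06 FPKM with DMSO and was listed at 0 with IWP2. Without IWP2 replicate 1, 2 HOX genes were called lower, and the count was 2 as well without IWP2 replicate 2.

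Genes of the posterior progenitor, the population in which CDX genes are active during axis elongation, were mostly lower. Of 15 listed genes, 12 were tested, 8 were called lower and none higher, beside 7.39% and 5.86% of all genes, with a median difference of -2.07 (log2) beside -0.01 over all genes. Of the 8, DLL3, FGF17 and SP8 reached the minimum mean only through the DMSO libraries. CYP26A1, which degrades retinoic acid at the posterior end, had 141 and 150 FPKM with DMSO and 8.86 and 9.98 with IWP2. WNT5B, a Wnt ligand, had 83.2 and 70.9 against 10.1 and 9.67 FPKM. DLL3, a Notch ligand of the presomitic mesoderm, had 44.9 and 81.6 against 0.254 and 0.292 FPKM. NKX1-2, a homeobox gene of the caudal epiblast, went the other way in its means, with 65.1 and 38.4 against 79.9 and 84.5 FPKM, and was not called (limma adjusted p = 0.139). T, the Brachyury gene of the primitive streak, kept more of its level than EVX1, CDX2 or CDX1 did, with 21.6 and 18.5 against 9.40 and 10.4 FPKM (log2 difference -0.94, limma adjusted p = 0.0114). Without IWP2 replicate 1, 3 of the genes were called lower, and without IWP2 replicate 2 the count was 3 too. Without DMSO replicate 1, 1 gene of the list was called higher.

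Among 16 genes known as direct targets of Wnt and beta-catenin, 10 were called lower and none higher, beside 7.39% and 5.86% of all genes, with a median difference of -1.11 (log2). Of the 10, 4 reached the minimum mean only through the DMSO libraries. SP5, a zinc finger gene that answers closely to Wnt, had 53.2 and 47.0 FPKM with DMSO and 0.379 and 0.363 with IWP2. NKD1, a feedback inhibitor, had 38.2 and 52.3 against 1.70 and 1.56 FPKM. CCND1 and MYC, cell cycle genes that many signals reach, were not called, with log2 differences of -0.08 and 0.19. Without DMSO replicate 1 the count called lower was 6, and without either IWP2 library it was 5.

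A further list, of ligands, receptors and enzymes of the Wnt, FGF and retinoic acid pathways, was called in both directions. The ligand genes FGF8, FGF17 and WNT5B stood in the posterior progenitor list instead, where they were called lower. Of 17 listed Wnt, FGF and retinoic acid genes, 10 were tested, 4 were called lower and 2 higher, beside 7.39% and 5.86% of all genes, with a median difference of -0.24 (log2). WNT5A had 60.1 and 82.4 FPKM with DMSO and 2.45 and 2.82 with IWP2. RARA, a retinoic acid receptor, had 11.6 and 14.3 against 7.52 and 7.61 FPKM, and FGF10 and WNT3 were also called lower, with log2 differences of -1.67 and -1.02. FGF2 rose from 11.5 and 11.0 to 22.4 and 23.1 FPKM, and WNT6 was called higher with a log2 difference of 1.10. RARG, with 26.0 and 25.1 against 29.7 and 27.0 FPKM, was not called. With any 1 library left out, 1 or 2 genes were called lower (2 without DMSO replicate 1) and 0 or 1 higher (1 without DMSO replicate 1).

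**Figure D4:**
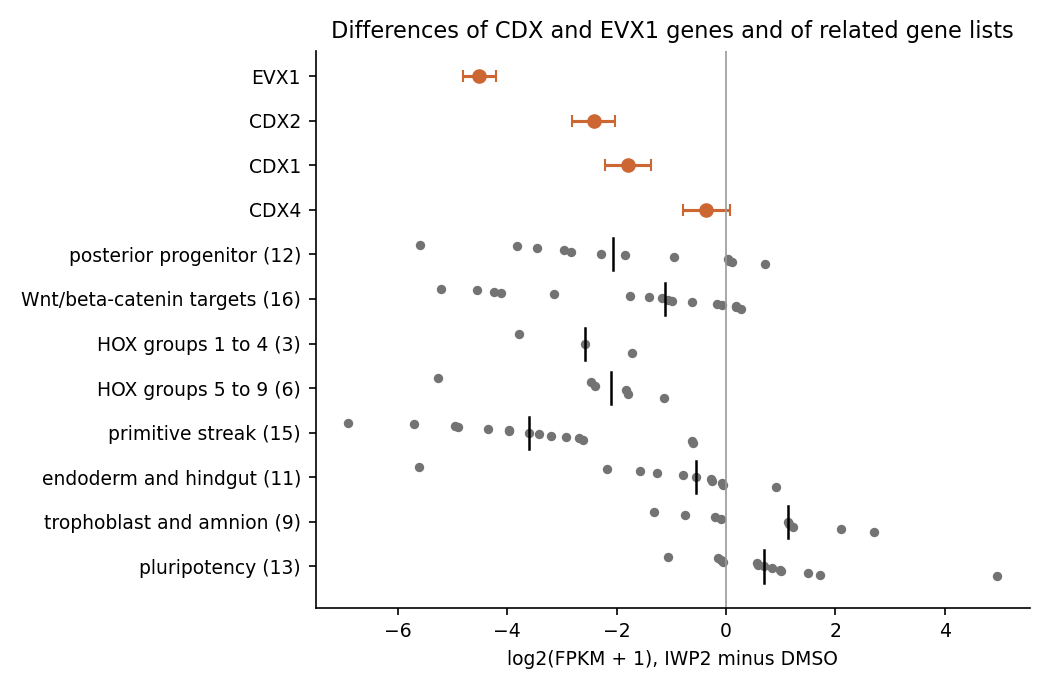
Differences on the log2(FPKM + 1) scale, IWP2 minus DMSO. The upper rows give the 4 genes with their 95% intervals from limma, the lower rows give the tested genes of each list as points, with their number in parentheses and a bar at the median, and only genes above the minimum mean are drawn. EVX1 lies at -4.51 and CDX4 at -0.36, and the medians are -2.07 for posterior progenitor genes and 0.70 for pluripotency genes.

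Markers of the cell types that the culture could hold moved with the treatment, and their part in the CDX and EVX1 values was not tested. In RNA from whole cultures, fewer cells that express a gene and less RNA per cell cannot be told apart. All 15 primitive streak genes were tested and called lower, beside 7.39% of all genes. Of the 15, 5 reached the minimum mean only through the DMSO libraries. The study's own screen for transcription factors lowered by IWP2 named EOMES, MESP1, GATA4 and GSC, and SNAI1, SNAI2 and ZEB2 were taken further from it. All of these stand in the list, so its count is no support of its own. The median difference of the list was -3.60 (log2), and its summed level was 1233 and 1539 FPKM with DMSO and 107 and 109 FPKM with IWP2. APLNR, the receptor gene that marks early mesoderm, had 380 and 512 against 2.97 and 2.39 FPKM, the lowest difference of all genes tested. The size of the fall varied within the list, and KDR kept 65.4% and FOXH1 63.6% of the DMSO mean. Without either IWP2 library, 8 of the 15 were called. Of 13 pluripotency genes, 7 were called higher and 1, TDGF1, lower, beside 5.86% and 7.39% of all genes. Of the 7, SOX2 reached the minimum mean only through the IWP2 libraries. POU5F1 had 751 and 571 FPKM with DMSO and 1854 and 1844 with IWP2, and SOX2 had 0.193 and 0.174 against 35.6 and 36.1 FPKM. The other 5 genes of the list were not called. Their log2 differences were -0.05 for LIN28A, -0.10 for SALL4, -0.14 for L1TD1, 0.98 for NANOG and 0.70 for UTF1. The summed level of the list was 1596 and 1436 FPKM with DMSO and 2771 and 2773 with IWP2. Without DMSO replicate 2, 3 of these genes were called higher, and without either IWP2 library 1.

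CDX2 is also a marker of trophoblast and of hindgut, and neither marker list followed it as a whole. Of 16 trophoblast and amnion genes in the table, 9 were tested, with a median difference of 1.14 (log2). Of these, 4 were called higher (TFAP2A, IGFBP3, KRT7 and GABRP) and 1 lower (HAND1), beside 5.86% and 7.39% of all genes. GABRP reached the minimum mean only through the IWP2 libraries, with a DMSO mean of 0.461 FPKM. The summed level of the list was 350 and 428 FPKM with DMSO and 266 and 291 with IWP2. HAND1 alone made up 234 and 322 and then 101 and 119 FPKM of it. HAND1 is expressed in mesoderm as well. ELF5, a defining trophoblast factor, was listed at 0 in all libraries, and the hormone subunit gene CGA was at or below 0.0998 FPKM. GATA3, with 39.7 and 43.7 against 34.6 and 37.7 FPKM, was not called, and neither was TFAP2C. With any 1 library left out, 0 to 3 genes were called higher, 0 of them without either IWP2 library and 2 without DMSO replicate 2, and HAND1 was called only without DMSO replicate 1.

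Of 15 endoderm and hindgut genes, 11 were tested, with a median difference of -0.54 (log2). Of these, 4 were called lower (CER1, FOXA2 and HHEX among them) and none higher, beside 7.39% and 5.86% of all genes. Of the 4, 3 reached the minimum mean only through the DMSO libraries. CER1, a secreted antagonist of the anterior endoderm and mesendoderm, had 1612 and 2048 FPKM with DMSO and 38.6 and 34.2 with IWP2. SOX17, with 155 and 104 against 79.7 and 94.9 FPKM, was not called, and neither were FOXA3 and VIL1. The intestinal lectin gene LGALS4 stayed at or below 0.239 FPKM in every library. Without DMSO replicate 1 the count called lower was 2, and without either IWP2 library it was 1. Of 13 neural ectoderm genes, 7 were tested. OTX2 was called lower, and NES and SOX3 were called higher, beside 7.39% and 5.86% of all genes. SOX3 reached the minimum mean only through the IWP2 libraries, with a DMSO mean of 0.467 FPKM. Of 13 blood and endothelial genes, 5 were tested and RUNX1 was called lower, with 2.51 and 2.35 against 0.209 and 0.350 FPKM. It reached the minimum mean only through the DMSO libraries. With 5 genes tested, 1 call is too few to read against the 7.39% of all genes called lower. RUNX1 was not called when any 1 library was left out. Of the neural genes, 1 was then called higher without either DMSO library and 0 without either IWP2 library.

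The genes most like each of the 4 were found by the Euclidean distance between log2(FPKM + 1) values, each centred on its own mean over the 4 libraries. With 4 libraries in 2 groups, this distance mainly compares the size of the difference and the spread within groups. Nearest to EVX1 were PRAC1 (distance 0.196) and the growth factor gene BMP2 (0.294), with 3 genes within 0.3. PRAC1 had 23.7 and 25.2 FPKM with DMSO and was listed at 0 in both IWP2 libraries. Nearest to CDX2 were the sterol hydroxylase gene CYP27A1 (0.0997), the transcript AL138900.3 (0.103) and the receptor gene FSHR (0.148), with 21 genes within 0.3. Nearest to CDX1 were the matrix proteoglycan gene LUM (0.0452), the Wnt inhibitor gene APCDD1 (0.0630) and the blood transcription factor gene LYL1 (0.0782), with 71 genes within 0.3. Nearest to CDX4 were RHOG (0.0156), a small GTPase gene, REV1 (0.0329), a DNA polymerase gene, and UBL4A (0.0372), none of which was called. As many as 2323 genes lay within 0.3 of CDX4, so its profile was that of a gene with a small difference and was shared with many.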

How the data were processed

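RNA from 2 DMSO and 2 IWP2 libraries of H1 cells was compared. The authors deposited 1 table of FPKM values per gene; its header names no unit, and the columns sum to between 616418 and 653850, so they are neither counts nor TPM. The submitters' processing notes list BWA, Bowtie, RSEM and hg19, whereas the coordinates in the table are those of GRCh38 (99.8% of the 55723 gene IDs shared with GENCODE 29 had the same limits). Aligner settings, versions and strand use are not given in the sources used here. Groups came from the sample titles, columns whose header puts a minus sign before IWP2 were read as the DMSO group, and a repeated symbol kept its highest-mean row.

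Genes with a mean of at least 0.5 FPKM were tested on log2(FPKM + 1) with limma 3.58.1 in R 4.3.3 (lmFit, eBayes with a mean-dependent prior, two-sided, Benjamini-Hochberg over 15957 genes, no covariate, threshold 0.05). The code was tested on simulated data. A difference on this scale understates the change of low genes. Depth was estimated from single-fragment steps in genes with 1 annotated transcript, with GENCODE 29 lengths, which the authors may not have used.

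Alternatives were another pseudocount, filter, scaling, prior, a replicate block and each library left out. The members and lists were chosen with earlier results of these data known. The naming rule took the 4 genes with the highest mean FPKM from each list, and all tested neighbours. The Results do not name every gene under this rule, and MIXL1, GATA6, ZIC2, ZIC5, CD34 and ETV2 are among those left out. T, SOX2 and the other list genes outside that rule were named after their values were seen. Some genes that the rule or the lists hold are not reported here.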

Additional observations from a re-analysis of the deposited data

How the results depend on the processing

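EVX1 stayed called lower under all 12 alternatives, and CDX4 stayed uncalled with a negative difference under all 11 that gave a value. CDX1 and CDX2 stayed called under 9 of 11; the exceptions were the fits without IWP2 replicate 1 and without IWP2 replicate 2. With each replicate left out in turn, the differences ranged from -1.86 to -1.73 for CDX1, from -2.47 to -2.36 for CDX2, from -0.49 to -0.23 for CDX4 and from -4.55 to -4.48 for EVX1. Each such fit has 1 residual degree of freedom, and its lone library is assumed to vary like the other group. Over the alternatives, adjusted p ranged from 0.00351 to 0.0832 for CDX1 and from 0.00119 to 0.0605 for CDX2. A minimum mean of 5 FPKM removed CDX1, CDX2 and CDX4 from the test. Without a filter on low values, 28846 genes were tested and the calls fell from 1180 lower and 935 higher to 266 lower and 118 higher; EVX1, CDX2 and CDX1 were still called, CDX1 at adjusted p = 0.0488. Among the lists, the count called lower then went from 8 to 5 for posterior progenitor genes. It went from 4 to 1 for the Wnt, FGF and retinoic acid list and from 4 to 1 for endoderm and hindgut. The count called higher went from 7 to 3 for pluripotency genes and from 4 to 1 for trophoblast and amnion. With a replicate left out, 88 to 431 genes were called lower and 19 to 300 higher. With the replicate numbers of the column headers as a replicate block, 1073 genes were called lower and 849 higher, and the adjusted p was 0.000731 for EVX1, 0.00458 for CDX2, 0.0102 for CDX1 and 0.269 for CDX4, which changed no call of these genes and no count of the lists. The labels do not say what a number shares, and the deviations of same-numbered libraries from their group means correlated at 0.138 over 15957 genes; 2 pairs are too few to call the libraries paired from this. Upper quartile scaling gave 1057 genes lower and 1085 higher. With 2 libraries a group, the difference of CDX4 was not resolved from 0.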
